A study of Mus musculus with 6 samples.

Results

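Of the 17973 mRNAs counted in the lungs of mice with silicosis and of control mice, 8 are described here: the glucocorticoid receptor Nr3c1 and 7 genes that glucocorticoids induce or that act on the hormone or its receptor, namely Fkbp5, Tsc22d3, Zbtb16, Sgk1, Dusp1, Hsd11b1 and Per1. They were chosen by symbol, with earlier results of these data known. All 8 were in the mRNA count table, and all 8 passed the filter on low counts. RNA came from whole lungs of C57BL/6 mice, in 6 libraries. Silicosis lungs (libraries N129, N136 and N138) came from mice given 8 mg of silica once into the trachea, in 40 µL of saline. Control lungs (libraries C7, C8 and C9) came from mice that the series text describes as given sterile saline. All lungs were frozen at 90 days. The labels give neither age nor sex nor the hour of collection. They do not say that each library is a different mouse, so the p-values here measure spread among samples that may be technical.

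Glucocorticoids (corticosterone in mice) are made in the adrenal gland and enter cells freely. In the cytoplasm they bind the receptor encoded by Nr3c1, which is held ready by the heat shock protein HSP90 and its co-chaperones. The bound receptor moves to the nucleus, binds DNA elements near genes such as Tsc22d3, Fkbp5, Zbtb16, Sgk1, Dusp1 and Per1, and restrains inflammatory genes driven by NF-kB and AP-1. Synthetic glucocorticoids are used widely against airway inflammation. In bulk lung, fewer cells of a type and less RNA per cell cannot be told apart.

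The mRNA libraries held between 33698920 and 44000748 counts. Values are normalised counts per 1000000 (CPM), given per library or as mean ± SD with n = 3 per group. Fold changes are silicosis over control with a standard error (SE) on the log2 scale, and adjusted p-values are from the edgeR quasi-likelihood test over all 15808 mRNAs tested. Defining lung markers were present in every library. Summed CPM of 5 alveolar type 2 markers lay between 10982 and 15632 in silicosis and between 12375 and 14403 in control. The marker lists that did not overlap between groups were lower in silicosis for endothelium, resting fibroblasts, smooth muscle, alveolar type 1 and club cells, and higher for macrophages, neutrophils and adipocytes. The plot of marker lists by library shows these sums. Among the 3 club markers, Scgb1a1 was called lower, while Scgb3a2 and Cyp2f2 did not pass the test.

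**Figure D1:**
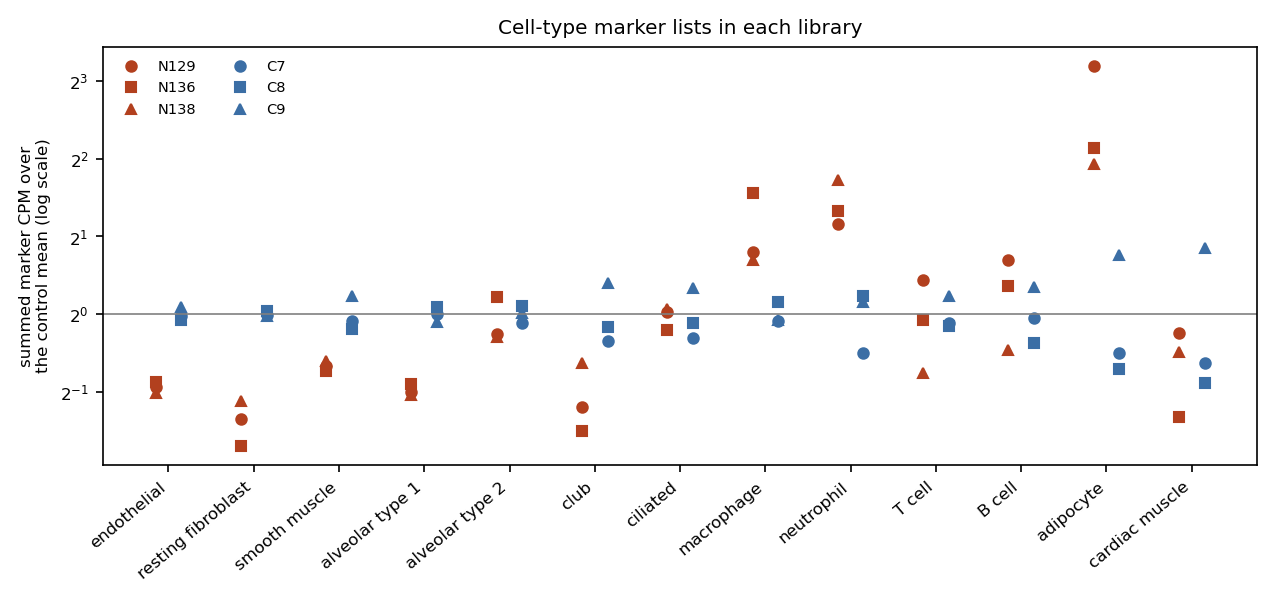
Summed CPM of each cell-type marker list in each library, divided by the mean of the control libraries, on a log2-spaced axis. Silicosis libraries are red and control libraries blue, with 1 point per library. Endothelial, resting fibroblast and alveolar type 1 sums are lower in all 3 silicosis libraries, and macrophage, neutrophil and adipocyte sums are higher.

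The 8 genes did not move together. In silicosis, Sgk1 and Fkbp5 rose, Hsd11b1, Zbtb16 and Per1 fell, and Nr3c1, Tsc22d3 and Dusp1 did not pass the test. So 5 of 8 were called, 2 higher and 3 lower, where 31.8% of all tested mRNAs were called, 15.3% higher and 16.5% lower. The log2 fold changes ran between -1.22 for Hsd11b1 and 1.14 for Sgk1, with a median of -0.33 beside 0.02 over all tested mRNAs. For 5 of the 8 genes the silicosis and control libraries did not overlap, as for 47.7% of all tested mRNAs. With library totals in place of scaling factors, the median of all tested mRNAs was 0.13 and 3439 were higher and 1936 lower, against 2421 and 2602 with scaling factors; the same number of the 8 genes, 5, was called. The authors' deposited table marks Sgk1 as up, Hsd11b1 and Zbtb16 as down and the other 5 as not changed. Among those 5, the authors' deposited table gives Per1 a log2 fold change of -0.97 with an adjusted p of 6.4e-05, and Fkbp5 one of 0.57 with an adjusted p of 0.0149.

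**Figure D2:**
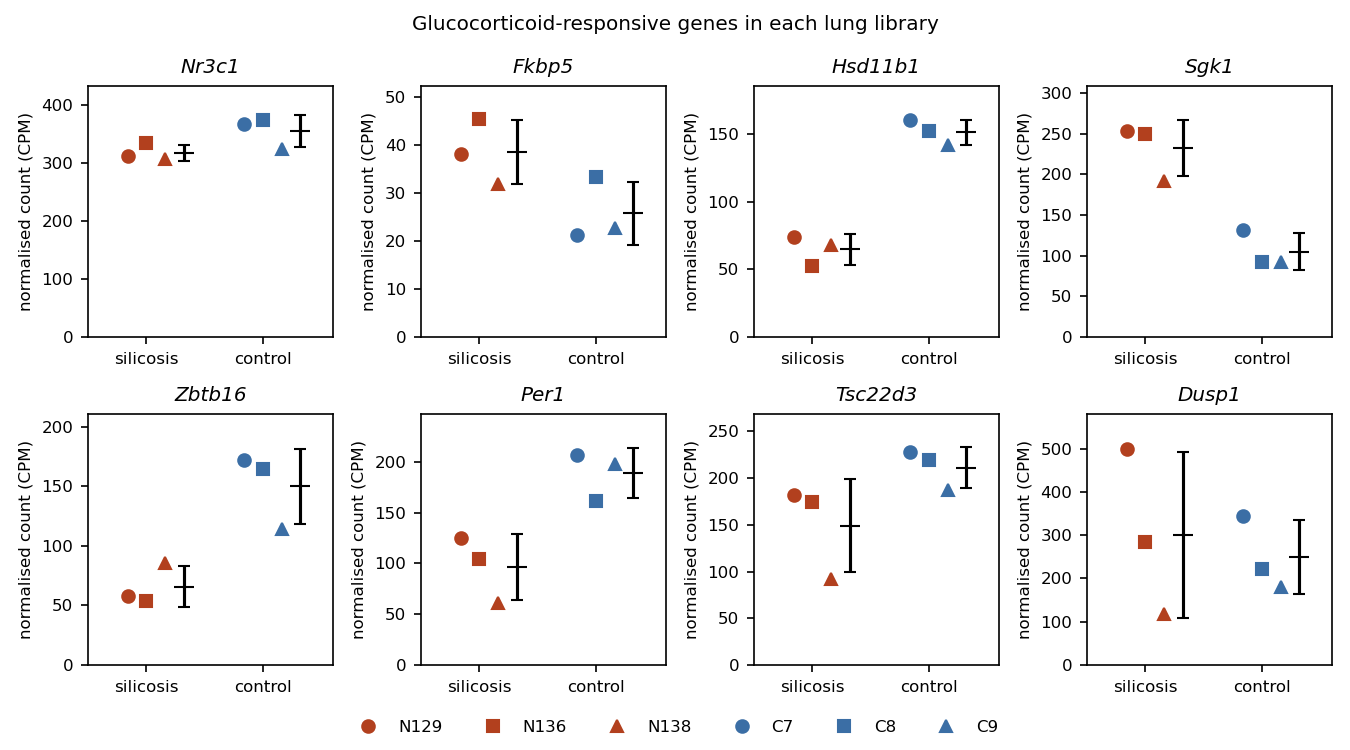
CPM of each of the 8 genes in each library, silicosis (red) left of control (blue), with 1 point per library and the mean ± SD as a black bar at the right of each group. Hsd11b1, Zbtb16, Per1 and Tsc22d3 lie lower and Sgk1 higher in all 3 silicosis libraries, while Nr3c1, Fkbp5 and Dusp1 overlap between groups.

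**Figure D3:**
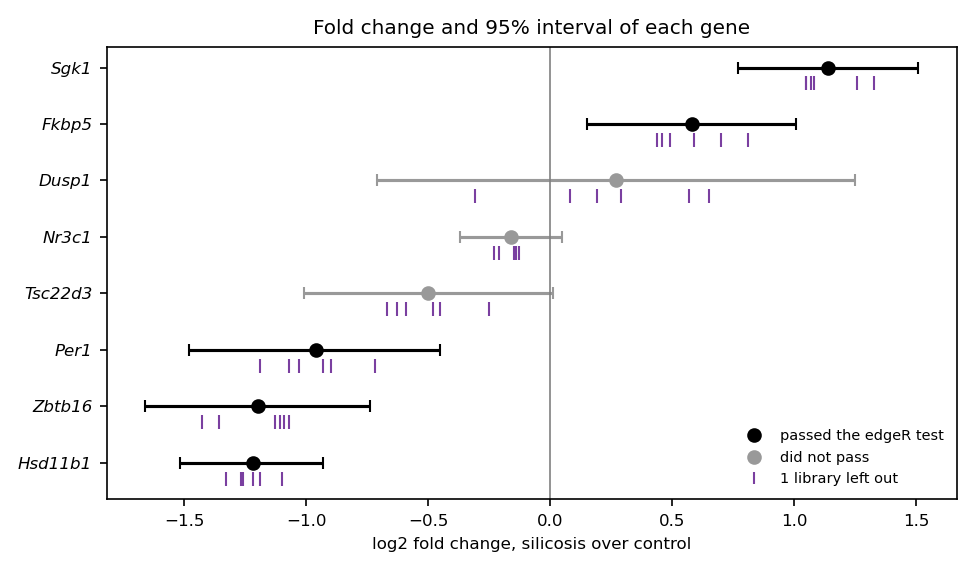
Log2 fold change, silicosis over control, of each gene with its 95% interval from the edgeR fit; black points passed the test and grey ones did not. Purple ticks are the values with 1 library left out, which for Dusp1 lie between -0.31 and 0.65, on both sides of 0.

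The receptor gene Nr3c1 did not pass the test. It had 312, 335 and 308 CPM in N129, N136 and N138, against 368, 375 and 325 CPM in C7, C8 and C9. The groups overlapped only through C9, which lay between N129 and N136. The log2 fold change was -0.16 (SE 0.09, edgeR adjusted p = 0.217), with a 95% interval of -0.37 to 0.05. Its coefficient of variation over the libraries was 4.52% in silicosis and 7.58% in control, beside medians of 12.5% and 10.3% over all tested mRNAs.

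Among 17 other genes of the receptor's chaperones and coregulators, 10 fell and 0 rose, with a median log2 fold change of -0.36. Over all tested mRNAs 16.5% were called lower and 15.3% higher. Bag1, a co-chaperone that binds the receptor, had 49.6, 55.0 and 47.3 CPM in silicosis, against 124, 123 and 124 CPM in control (log2 fold change -1.29, SE 0.09). The coactivator Crebbp fell by 0.65 on the log2 scale (SE 0.11). The fall of Bag1 was the largest of the 10, and 6 of the 17 genes were called with library totals in place of scaling factors. Nr3c2, the mineralocorticoid receptor and closest relative of Nr3c1, which also binds corticosterone, had 34.0, 25.4 and 35.6 CPM in silicosis, against 49.4, 44.3 and 56.0 CPM in control. It fell by 0.66 on the log2 scale (SE 0.15, edgeR adjusted p = 0.00929).

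Fkbp5 encodes FKBP51, an HSP90 co-chaperone that lowers the receptor's affinity for hormone and is itself induced by the receptor. It had 38.1, 45.4 and 32.0 CPM in N129, N136 and N138, against 21.3, 33.3 and 22.7 CPM in C7, C8 and C9. The groups overlapped, since C8 lay just above N138. Fkbp5 was higher by 0.58 on the log2 scale (SE 0.19, edgeR adjusted p = 0.0442), the smallest change among the 5 called. That call ended without N129, N136, C7 or C9, with adjusted p of 0.0954, 0.127, 0.145 and 0.138. Its relative Fkbp4, which encodes the co-chaperone FKBP52 that favours receptor activity, did not pass. Fkbp4 had 125, 102 and 79.7 CPM in silicosis, against 124, 160 and 113 CPM in control (log2 fold change -0.37, SE 0.18, edgeR adjusted p = 0.138).

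Hsd11b1 encodes the enzyme that turns the inactive keto form of the hormone back into corticosterone inside cells. It had 73.8, 52.2 and 68.1 CPM in N129, N136 and N138, against 160, 152 and 142 CPM in C7, C8 and C9. Every silicosis library was lower than every control library, and the mean was 64.7 ± 11.2 CPM in silicosis and 151 ± 9.03 CPM in control (SD, n = 3). The log2 fold change was -1.22 (SE 0.13, edgeR adjusted p = 0.000278), the lowest adjusted p of the 8, and stayed between -1.33 and -1.10 with each library left out. The mean ratio of silicosis to control from the fit was 0.43.

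The opposing enzyme moved the other way. Hsd11b2, which inactivates corticosterone, had 7.35, 8.12 and 4.98 CPM in silicosis, against 2.83, 3.42 and 2.69 CPM in control. It rose by 1.19 on the log2 scale (SE 0.24, edgeR adjusted p = 0.00511). Per kilobase of exon its level was 3.71 ± 0.89 CPM in silicosis and 1.62 ± 0.211 CPM in control, still below the 15.2 ± 2.64 and 35.5 ± 2.12 CPM per kilobase of Hsd11b1 in the same groups. H6pd, singled out after its values were seen because it supplies the cofactor for Hsd11b1, had 270, 332 and 288 CPM in silicosis, against 393, 398 and 373 CPM in control. It fell by 0.39 (SE 0.10, edgeR adjusted p = 0.0176), a call that ended without N129, C7 or C8.

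Of 7 tested genes of steroid metabolism and transport other than Hsd11b1, 2 rose and 2 fell, with a median of 0.04. Abcb1a and Abcb1b, which encode the mouse P-glycoproteins that export steroids among other compounds, were called in opposite directions. Abcb1a fell by 0.54 (SE 0.10) and Abcb1b rose by 0.68 (SE 0.15). They share 18.7% and 19.5% of their sequence windows with other genes' transcripts, so reads between them are uncertain. Cyp11a1, which starts steroid synthesis, had between 0.522 and 1.01 CPM in silicosis and between 0.422 and 0.731 CPM in control.

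Marker lists of several lung cell types moved with Hsd11b1. All 5 resting fibroblast markers fell, where 16.5% of all tested mRNAs fell. Their summed CPM lay between 747 and 1114 in silicosis and between 2381 and 2481 in control. N136 was the lowest silicosis library for Hsd11b1 and for this sum, and also for the smooth muscle and club sums. Endothelial and alveolar type 1 sums, likewise lower in silicosis, were highest in N136 among the silicosis libraries, at 1951 and 1933 CPM. Of 4 tested adipocyte markers, all 4 rose, opposite to Hsd11b1, where 15.3% of all tested mRNAs rose. Their summed CPM lay between 45.5 and 109 in silicosis and between 7.28 and 20.1 in control. Their part in the result was not tested. The genes whose values over the 6 libraries were most like those of Hsd11b1 were Krt80 and Gata2, with root mean square differences of 0.069 and 0.074 on the log2 scale after each gene's own mean was subtracted.

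Sgk1 had the largest rise of the 8. It encodes serum- and glucocorticoid-regulated kinase, which raises sodium transport in epithelia and acts on survival and immune signalling. Sgk1 had 253, 249 and 192 CPM in N129, N136 and N138, against 131, 91.7 and 91.8 CPM in C7, C8 and C9. The lowest silicosis library was above the highest control library. The mean was 232 ± 34.2 CPM in silicosis and 105 ± 22.7 CPM in control (SD, n = 3), with a log2 fold change of 1.14 (SE 0.16, edgeR adjusted p = 0.00109) that lay between 1.05 and 1.33 with each library left out.

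Sgk1 also carries an exact receptor motif close to a start site. RefSeq promoters of GRCm38.p6, an earlier build than the GRCm39 named in the submitters' processing notes, span 250 bases before to 50 after each start, and 6 of the 8 genes matched, with 14 windows. The motif searched was the palindrome of AGAACA and TGTTCT with any 3 bases between, on which both strands read alike. It was in 3 of 32851 windows, or 0.00913%, belonging to Acnat2, Gm35041 and Sgk1, of which Sgk1 was the only one tested. Either of AGAACA and TGTTCT, which are each other's reverse complement, was in 19% of windows and in 4 of the 14. The Sgk1 window is at chr10:21993640-21993939 on the plus strand. It is shown because it holds the palindrome, which begins 189 bases before the start. Capitals mark the palindrome, and further upstream an E-box CACGTG that overlaps another TGTTCT.

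Sgk1 promoter: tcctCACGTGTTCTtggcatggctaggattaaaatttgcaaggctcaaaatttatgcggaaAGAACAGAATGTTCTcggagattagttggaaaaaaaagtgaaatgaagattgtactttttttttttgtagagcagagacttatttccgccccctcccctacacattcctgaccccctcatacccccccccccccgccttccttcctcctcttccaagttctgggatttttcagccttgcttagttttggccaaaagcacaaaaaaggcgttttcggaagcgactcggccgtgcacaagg

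Sgk1 has 6 such start windows, and counts per gene do not tell which start was used. The palindrome is in 1 of the 6. The match describes sequence and is not a measurement of binding.

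Genes around SGK1 went both ways. Of 9 genes of its pathway and of the epithelial sodium channel, 2 rose and 4 fell, with a median of -0.32. Among all tested mRNAs 15.3% rose and 16.5% fell. Without C7, 2 of these 9 genes were called. Scnn1a, the alpha subunit of the sodium channel and a textbook glucocorticoid target in lung epithelium, had 175, 200 and 199 CPM in silicosis, against 375, 399 and 405 CPM in control. It fell by 1.04 on the log2 scale (SE 0.09, edgeR adjusted p = 0.000125). Scnn1g, the gamma subunit, fell by 0.48 (SE 0.12), a call that ended without C7. Of the relatives of Sgk1, Sgk3 had 56.9, 55.3 and 71.2 CPM in silicosis, against 43.3, 43.1 and 38.5 CPM in control, and rose by 0.55 (SE 0.12). Sgk2 was below 1 CPM in every library and did not pass.

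Sums of macrophage, neutrophil and adipocyte markers were higher in silicosis, as Sgk1 was. Of 5 macrophage markers 4 rose and 0 fell, where 15.3% of all tested mRNAs rose and 16.5% fell. Their summed CPM lay between 5435 and 9891 in silicosis and between 3140 and 3718 in control. Of 5 neutrophil markers 3 rose and 0 fell, with sums between 229 and 337 in silicosis and between 72.3 and 120 in control. N138, the lowest silicosis library for Sgk1, was the lowest for the macrophage sum but the highest for the neutrophil sum. C7, the highest control library for Sgk1, was the lowest control library for both sums. The calls of Cd68, Csf1r and Adgre1, of the macrophage list, and of S100a9, of the neutrophil list, each ended without at least 1 control library. Their part in the rise was not tested. The genes most like Sgk1 over the 6 libraries were Gxylt2 and Gpr132, with root mean square differences of 0.084 and 0.098 on the log2 scale.

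Zbtb16 encodes PLZF, a zinc finger transcription factor that glucocorticoids strongly induce in many tissues and that also marks innate-like T cells. It had 57.7, 53.5 and 85.3 CPM in N129, N136 and N138, against 172, 164 and 114 CPM in C7, C8 and C9. The highest silicosis library was below the lowest control library. The mean was 65.5 ± 17.3 CPM in silicosis and 150 ± 31.5 CPM in control (SD, n = 3), with a log2 fold change of -1.20 (SE 0.20, edgeR adjusted p = 0.00255). Among silicosis libraries N138 was the highest for Zbtb16, whereas N138 was the lowest for Sgk1, Fkbp5, Tsc22d3, Dusp1, Per1 and, narrowly, Nr3c1. The 5 T cell markers did not pass, with summed CPM between 54.7 and 125 in silicosis and between 82.8 and 109 in control. The genes most like Zbtb16 were Etfb and Ndufaf2, at root mean square differences of 0.111 and 0.136.

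Tsc22d3 encodes GILZ, a leucine zipper protein through which glucocorticoids restrain NF-kB and AP-1 and which is abundant in lymphocytes and macrophages. It had 182, 174 and 91.7 CPM in N129, N136 and N138, against 228, 219 and 187 CPM in C7, C8 and C9. Each silicosis library was lower than each control library, though N129 and N136 lay close to C9 and N138 was far below them. The log2 fold change was -0.50 (SE 0.23, edgeR adjusted p = 0.121), with a 95% interval of -1.01 to 0.01, and it was -0.25 without N138. N138 was also the lowest library in summed T cell and B cell markers, with 54.7 and 115 CPM. Among the control libraries C9 was the lowest for Tsc22d3 but the highest in both sums, with 109 and 202 CPM. The part of lymphocytes in the result for Tsc22d3 was not tested. The genes most like Tsc22d3 were Zfp791 and Samd3, at root mean square differences of 0.105 and 0.114.

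Of the relatives of Tsc22d3, Tsc22d4 fell by 0.60 on the log2 scale (SE 0.10, edgeR adjusted p = 0.00261). Tsc22d4 had 48.4, 54.0 and 44.2 CPM in silicosis, against 72.1, 71.1 and 78.3 CPM in control. Tsc22d1 and Tsc22d2 did not pass, with log2 fold changes of 0.17 (SE 0.10) and -0.01 (SE 0.10). Sgk1 and Tsc22d3 were the members of the 6 matched with AGAACA or TGTTCT in a start window, and the copy of Tsc22d3 is at chrX:140600473-140600772 on the minus strand, 185 bases before the start. The window is shown for comparison with Sgk1, with that copy in capitals.

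Tsc22d3 promoter: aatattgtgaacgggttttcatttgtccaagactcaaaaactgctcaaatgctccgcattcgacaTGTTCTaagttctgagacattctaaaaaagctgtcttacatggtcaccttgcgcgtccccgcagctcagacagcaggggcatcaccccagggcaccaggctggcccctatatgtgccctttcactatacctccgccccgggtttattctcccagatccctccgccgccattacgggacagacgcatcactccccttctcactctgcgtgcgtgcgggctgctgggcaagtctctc

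Dusp1 encodes MKP-1, a phosphatase that switches off the MAP kinases p38 and JNK and is induced both by glucocorticoids and, within minutes, by stress and growth signals. It had 499, 285 and 117 CPM in N129, N136 and N138, against 345, 222 and 181 CPM in C7, C8 and C9. N129 was the highest and N138 the lowest of the 6 libraries, and the control libraries lay between them. Its highest silicosis library was 4.28 times the lowest. Its coefficient of variation was 63.9% in silicosis and 34.1% in control, larger than that of any other of the 8 genes in either group. The log2 fold change was 0.27 (SE 0.43, edgeR adjusted p = 0.675), with a 95% interval of -0.71 to 1.25, and it turned to -0.31 without N129. Exons of Dusp1 overlap those of Ergic1 on the opposite strand. Without a stated strand setting, reads within that overlap cannot be told apart, and its extent was not measured. Ergic1 had between 71.1 and 82.3 CPM in silicosis and between 83.0 and 88.6 CPM in control.

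Immediate-early genes, which respond to stimuli and tissue handling within minutes, stood apart in N129. Of these 14 genes, 13 were highest in N129 among the silicosis libraries and 10 were lowest in N138. Their summed level was 2068, 885 and 640 CPM in N129, N136 and N138, against 1035, 944 and 950 CPM in C7, C8 and C9. Of the 14, 2 rose and 1 fell, with a median of 0.71, and 7 were called without N138. With all 6 libraries, 15.3% of all tested mRNAs rose and 16.5% fell. Egr2, a zinc finger transcription factor, had 28.8, 21.4 and 21.6 CPM in silicosis, against 5.12, 5.96 and 6.81 CPM in control, and rose by 2.01 (SE 0.17). Atf3, a stress-induced factor of the ATF family, rose by 2.68 (SE 0.45). Jun, a subunit of AP-1, fell by 0.96 (SE 0.29), a call that ended with DESeq2 and without N136, N138 or any control library.

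Fos and Egr1, singled out after their values were seen, had 245 and 275 CPM in N129. The range over the other 5 libraries was 30.1 to 52.4 CPM for Fos and 31.7 to 56.1 CPM for Egr1. Neither passed the test. The part of this difference between libraries in the result for Dusp1 was not tested.

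Of 9 other dual-specificity phosphatases, 2 rose and 2 fell, where 15.3% of all tested mRNAs rose and 16.5% fell. Dusp7, which acts on ERK, had 85.6, 87.3 and 81.2 CPM in silicosis, against 194, 176 and 212 CPM in control (log2 fold change -1.20, SE 0.10). Dusp5 and Dusp4, nuclear phosphatases, rose by 0.95 (SE 0.14) and 0.49 (SE 0.11), and Dusp5 shares 20.6% of its windows with other genes. The genes most like Dusp1 were Fam163b and Trat1, at root mean square differences of 0.158 and 0.213, larger than for any other of the 8. The start window of Dusp1, at chr17:26508423-26508722 on the minus strand, is shown because it holds the cAMP-response core TGACG or its reverse complement CGTCA at 3 places, a core found in 20.8% of all windows. Capitals mark these, with the copies that begin 143 and 140 bases before the start overlapping in TGACGTCA, and an E-box CACGTG.

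Dusp1 promoter: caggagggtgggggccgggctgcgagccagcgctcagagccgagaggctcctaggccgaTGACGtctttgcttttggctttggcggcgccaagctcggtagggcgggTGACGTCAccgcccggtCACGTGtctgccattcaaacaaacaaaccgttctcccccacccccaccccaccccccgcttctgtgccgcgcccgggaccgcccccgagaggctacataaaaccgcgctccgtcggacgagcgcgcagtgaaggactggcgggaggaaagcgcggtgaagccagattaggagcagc

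Per1, a repressor in the circadian clock, is induced by glucocorticoids and by cAMP as well as by the clock itself. It had 125, 104 and 60.8 CPM in N129, N136 and N138, against 207, 161 and 198 CPM in C7, C8 and C9. No silicosis library reached the lowest control library. The mean was 96.6 ± 32.6 CPM in silicosis and 189 ± 24.3 CPM in control (SD, n = 3). Per1 fell by 0.96 on the log2 scale (SE 0.23, edgeR adjusted p = 0.0118), and the value was -0.72 without N138 and -1.19 without N129.

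Other clock genes differed between groups too. Of 18 tested clock genes other than Per1, 3 rose and 6 fell, with a median of -0.28. The whole set of tested mRNAs had 15.3% higher and 16.5% lower. Hlf, a clock-controlled transcription factor, had 10, 15.8 and 25.6 CPM in silicosis, against 71.5, 68.9 and 56.1 CPM in control, and fell by 1.93 (SE 0.28, edgeR adjusted p = 0.00121). Nfil3, which represses the same DNA elements that Hlf activates, had 24.4, 21.7 and 15.4 CPM in silicosis, against 6.53, 8.54 and 7.54 CPM in control, and rose by 1.44 (SE 0.19). Bhlhe40, another clock repressor, rose by 1.02 (SE 0.13). Of the relatives of Per1, Per2 had 24.4, 31.9 and 50.3 CPM in silicosis, against 88.1, 75.6 and 83.7 CPM in control, and fell by 1.21 (SE 0.22). Per3 did not pass, with 27.9, 57.0 and 107 CPM in silicosis, against 116, 96.8 and 113 CPM in control (log2 fold change -0.77, SE 0.37).

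The silicosis libraries did not share 1 clock pattern, and among them Per1 was ordered otherwise than Dbp and Nr1d1. Between groups, Per1 fell, as did 6 of the 18 other tested clock genes, while 3 rose. Dbp and Nr1d1, singled out after their values were seen, are direct clock outputs. Dbp had 3.29, 34.2 and 41.9 CPM in N129, N136 and N138, against 87.7, 73.1 and 85.8 CPM in C7, C8 and C9. It shares 27.4% of its sequence windows with transcripts of Sphk2. Nr1d1 had 32.1, 85.1 and 143 CPM in silicosis, against 305, 298 and 347 CPM in control. Arntl, the activator of the clock and likewise singled out, had 50.5, 16.9 and 25.6 CPM in silicosis, against 15, 17.3 and 16.9 CPM in control. N129 was thus the lowest library for Dbp, Nr1d1, Per2, Per3 and Hlf and the highest for Arntl. Among the silicosis libraries N129 was also the highest for Per1. Nr1d1 passed the test (edgeR adjusted p = 0.0089), while Dbp and Arntl did not (edgeR adjusted p = 0.081 and 0.0612). The hour of collection is not known, and its part in the fall of Per1 was not tested.

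**Figure D4:**
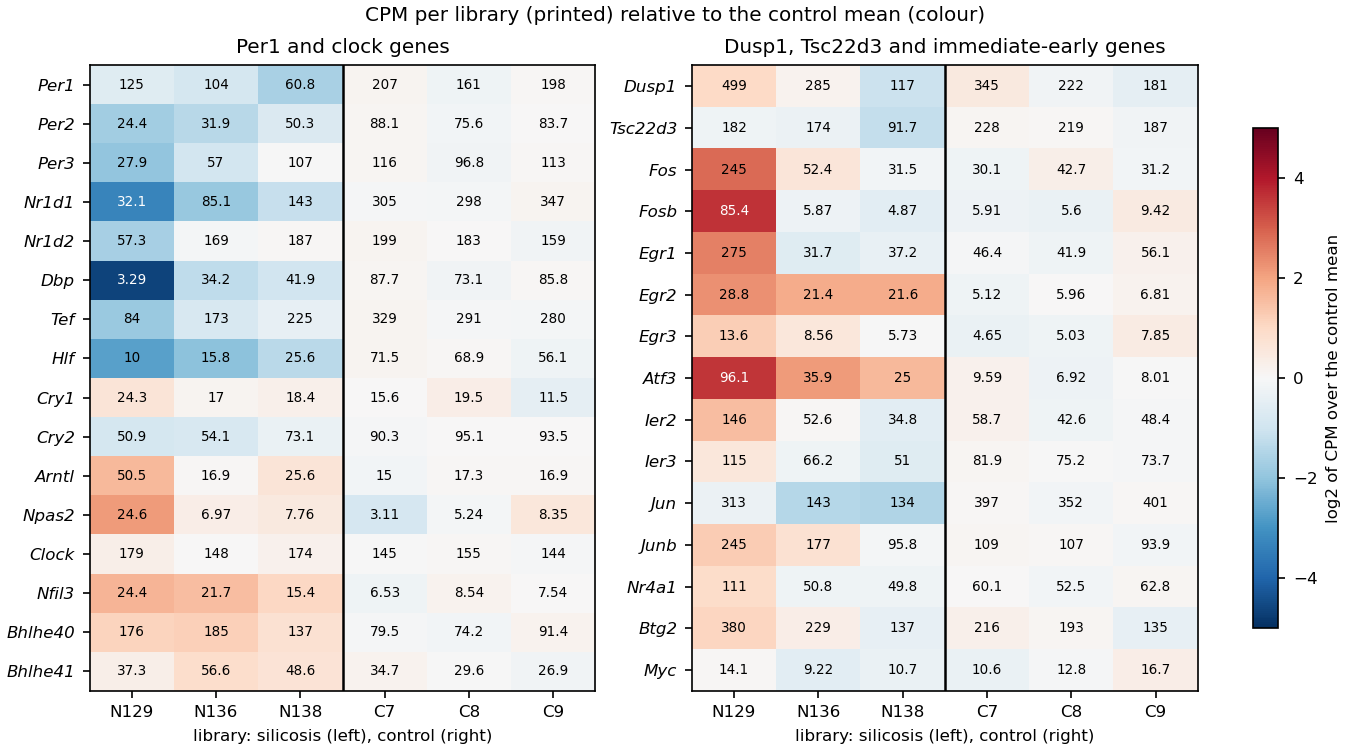
CPM (printed in each cell) of Per1 with clock genes and of Dusp1 and Tsc22d3 with immediate-early genes, in the silicosis libraries left of the black line and the control libraries right of it. Colour is the log2 ratio to the control mean. N129 has the lowest Dbp, at 3.29 CPM, and the highest Fos, at 245 CPM.

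The 2 start windows of Per1 are shown because both hold a TGACG core and the first an E-box, the DNA element of the clock activators. The E-box was in 7.15% of all windows and in 4 of the 14 of these genes. The first is at chr11:69098699-69098998 and the second at chr11:69099902-69100201, both on the plus strand. Capitals mark the E-box CACGTG, 166 bases before the first start, and TGACG, 246 bases before the first and 132 before the second start. Neither window holds AGAACA or TGTTCT.

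Per1 promoter 1: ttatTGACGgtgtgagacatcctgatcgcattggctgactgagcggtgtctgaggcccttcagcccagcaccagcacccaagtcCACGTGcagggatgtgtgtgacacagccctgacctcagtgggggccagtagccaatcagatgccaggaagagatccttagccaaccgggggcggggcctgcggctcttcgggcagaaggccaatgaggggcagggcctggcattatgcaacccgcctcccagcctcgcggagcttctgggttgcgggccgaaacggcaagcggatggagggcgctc
Per1 promoter 2: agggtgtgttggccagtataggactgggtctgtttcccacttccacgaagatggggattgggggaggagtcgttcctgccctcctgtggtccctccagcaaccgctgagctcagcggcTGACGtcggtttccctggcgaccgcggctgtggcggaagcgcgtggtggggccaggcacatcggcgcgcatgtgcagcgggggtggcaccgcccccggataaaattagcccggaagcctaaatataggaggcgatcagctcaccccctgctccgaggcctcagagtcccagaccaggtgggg

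The genes most like Per1 over the 6 libraries were Nkg7 and Prf1, at root mean square differences of 0.103 and 0.148. Both encode proteins of cytotoxic lymphocytes. Nkg7 had 10.2, 8.28 and 5.43 CPM in silicosis, against 15.8, 15.2 and 16.9 CPM in control.

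Genes outside the 8 that glucocorticoids act on were listed as induced or repressed. Over all tested mRNAs 31.8% were called, 15.3% higher and 16.5% lower. Of 27 tested genes that glucocorticoids induce, 8 rose and 9 fell, with a median of -0.05, and 11 were called without C8 in place of 17. Il1r2, the interleukin-1 decoy receptor, had 11.6, 10.8 and 10.2 CPM in silicosis, against 0.671, 1.48 and 1.2 CPM in control, and rose by 3.27 (SE 0.27, edgeR adjusted p = 9.5e-05). Anxa1, an anti-inflammatory annexin, had 314, 376 and 310 CPM in silicosis, against 152, 185 and 157 CPM in control, and rose by 1.01 (SE 0.12). Klf9, a transcription factor and direct receptor target, had 168, 139 and 153 CPM in silicosis, against 254, 274 and 294 CPM in control, and fell by 0.84 (SE 0.10).

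Of 12 inflammatory genes that glucocorticoids repress, 9 rose and 0 fell, with a median of 2.47. Ccl2, the monocyte chemoattractant, had 16.6, 13.6 and 14.9 CPM in silicosis, against 0.298, 0.335 and 0.418 CPM in control. The log2 fold change of Ccl2 was 5.41 (SE 0.21), and that of Cxcl2, which attracts neutrophils, was 7.25 (SE 0.42). Il1b, the interleukin-1 beta cytokine, had 71.4, 75.3 and 85.7 CPM in silicosis, against 13.9, 16.9 and 18.4 CPM in control (log2 fold change 2.24, SE 0.13). The part of glucocorticoids in the changes of the induced and the repressed genes was not tested.

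**Figure D5:**
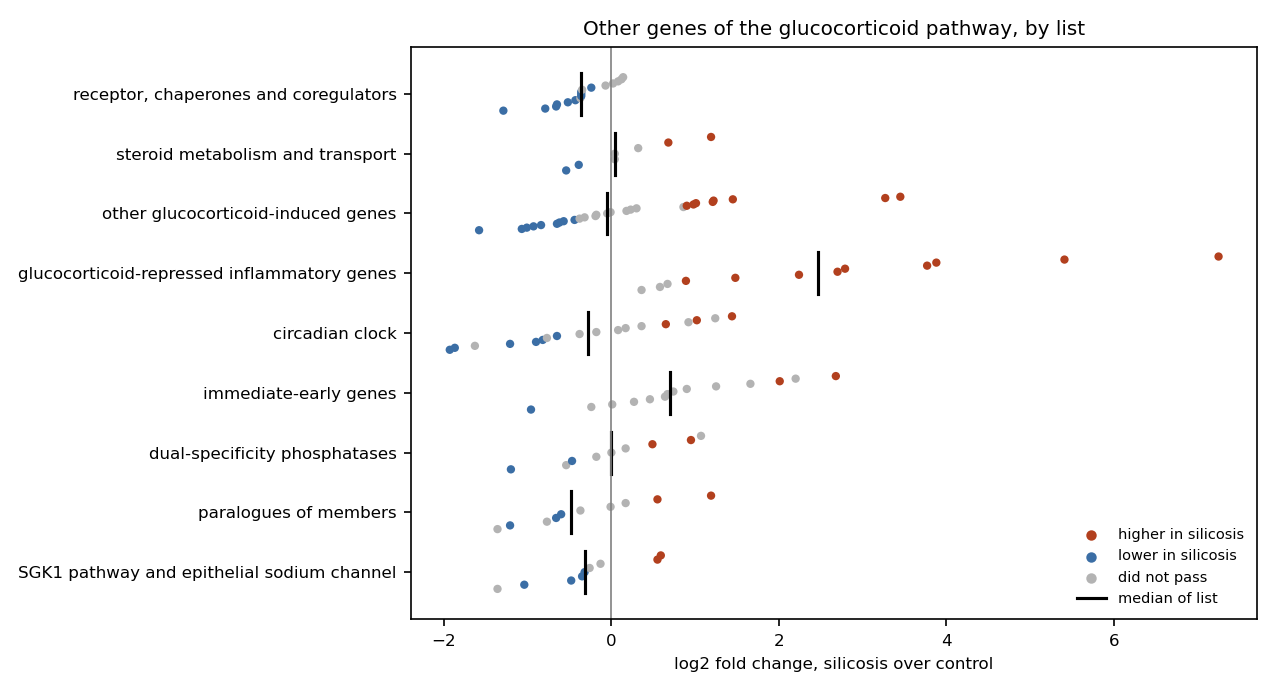
Log2 fold change, silicosis over control, of each tested gene in 9 lists around the glucocorticoid pathway, without the 8 genes themselves. Red genes rose, blue genes fell, grey genes did not pass, and black lines are medians, which are 2.47 for the repressed inflammatory genes and -0.05 for the induced genes.

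Per kilobase of exon the order of the 8 levels differed between groups. In silicosis it was Dusp1 (90.7 ± 57.9 CPM per kilobase), Sgk1 (47.2 ± 6.97), Nr3c1 (41.4 ± 1.87), Tsc22d3 (34.4 ± 11.5), Per1 (17.2 ± 5.80), Hsd11b1 (15.2 ± 2.64), Zbtb16 (12.4 ± 3.27) and Fkbp5 (4.07 ± 0.705). In control it was Dusp1 (75.3 ± 25.7 CPM per kilobase), Tsc22d3 (48.7 ± 5.08), Nr3c1 (46.3 ± 3.51), Hsd11b1 (35.5 ± 2.12), Per1 (33.5 ± 4.32), Zbtb16 (28.4 ± 5.97), Sgk1 (21.4 ± 4.62) and Fkbp5 (2.72 ± 0.691), all as mean ± SD with n = 3. Fkbp5 was separated from its neighbour by more than the SDs in both groups, and so was Nr3c1 from Hsd11b1 in control. The other neighbours overlapped within 1 SD. Sgk1 stood next to Dusp1 in silicosis and next to Fkbp5 in control.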

How the data were processed

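Total RNA of whole lung was sequenced in 6 libraries, grouped by the titles in the labels. The authors deposited raw counts per gene, and a comparison table with log2 fold changes and p-values. Of tools, DESeq2 1.36.0, featureCounts 2.0.0, Bowtie2, HISAT2 and Trimmomatic 0.39 appear in the submitters' processing notes without roles, with the build GRCm39. The annotation and strand setting are not given in the sources used. The members and lists were chosen with earlier results of these data known.

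From the counts, edgeR 4.0.16 in R 4.3.3 kept 15808 of 17973 mRNAs (filterByExpr, 99.98% of counts), scaled libraries by TMM and compared groups by its quasi-likelihood F test (two-sided), adjusting p-values after Benjamini and Hochberg over all tested mRNAs (threshold 0.05). The SE is the log2 fold change over the square root of F, and 95% intervals use the t quantile of the fit. CPM is per 1000000 TMM-scaled counts. On simulated counts, 100 genes were changed 2-fold and 100 genes 4-fold, and the test recovered 76% and 91% of them. Changes below 2-fold were not simulated. Of the calls, 8.24% were unchanged genes, a share above the threshold. Far more genes were called in the data than were changed in the simulation, so these shares need not carry over. Libraries of a group differed beyond counting noise (chi-square per degree of freedom between 15.0 and 79.0).

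All 8 members were named. From each list the 3 called genes with the lowest p and every relative of a member were named, and for each member the 2 genes nearest in pattern among genes whose average log2 CPM as given by edgeR was 0 or more, leaving out symbols that begin with Gm or LOC or end with Rik. A gene that this rule names is not reported here. Of 120 other listed genes 118 were in the table and 116 were tested. Cyp11b1 was not in the table, Bmal1 appears as Arntl, and Serpina6 and Mt2 did not pass the filter. Exon lengths, overlaps and windows of 50 bases every 5 bases shared with other genes come from GENCODE M21 (GRCm38). The windows shared were 0.79% or less for each of the 8 genes. Alternatives were DESeq2 size factors, library totals, upper-quartile scaling, no filter, DESeq2 1.42.0, limma-voom (limma 3.58.1) and each library left out. The lncRNA and circRNA tables were not used.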

Additional observations from a re-analysis of the deposited data

How the results depend on the processing

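The 12 alternatives gave 96 values for the 8 genes, and 91 kept the direction and the side of the threshold. The 4 that lost the call were all of Fkbp5, with 1 library left out. The value that reversed was that of Dusp1, -0.31 without N129, in a range of -0.31 to 0.65 with each library left out. The number of the 8 genes called was 5 with other scaling, filters and tools and 4 or 5 with 1 library left out. Calls over all mRNAs ranged from 3484 to 5556. No paired analysis was possible because the groups share no replicate numbers. With 3 libraries a group, an exact permutation test of a single value cannot give a two-sided p below 0.1.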

Other observations

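Within the silicosis group the 8 genes were ordered by library. N138 was the lowest of the 3 for 6 of the 8 genes, and N129 the highest for 5. Over all tested mRNAs N138 was the lowest for 37.1% and N129 the highest for 25.7%. The order was not particular to the 8. These shares were 71.4% and 92.9% for immediate-early genes and 63% and 51.9% for other glucocorticoid-induced genes. For clock genes, Per1 among them, they were 15.8% and 36.8%. Within the control group C7 was the highest for 6 of the 8 and C9 the lowest for 5, against 27.2% and 37.7% of all tested mRNAs. Of the other glucocorticoid-induced genes, C7 was the highest for 18.5% and the lowest for 63%. Hsd11b1 and Zbtb16 were the exceptions to the low values of N138, with 68.1 and 85.3 CPM there. This order was noticed after the values were seen and was not tested.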
